A study of Mus musculus with 8 samples.

Results

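R-loop peaks at 4 mouse genes, Ttc21b, Ppp1r9a, Lpp and Ror2, are described here. They are all peaks of the deposited lists whose summit lay inside the RefSeq bounds of these genes (GRCm38.p6) extended by 1 kb on either side. The rule gave 25 of the 40207 peaks in the 4 lists, 15 from young and 10 from aged cells. The 4 genes were chosen by their measured peak strength, because their strongest aged peak stood far above their strongest young peak in earlier results from the same lists. Differences in strength between the ages are therefore a description, and no test was run on them. The cells were haematopoietic stem cells sorted from mouse bone marrow as negative for lineage markers and CD34 and positive for Sca1 and cKit. DNA:RNA hybrids were pulled down from their genomic DNA with antibody S9.6 and sequenced strand by strand (ssDRIP-seq), with 2 immunoprecipitated (IP) and 2 input samples from young and the same from aged mice. The labels give the age only as young or aged, list no treatment, and give no strain, sex or number of mice pooled. The deposited peaks form 1 list per age and strand with the samples combined, so no spread between replicates could be measured and every interval below covers counting error only. Peaks do not measure expression, so the cell type could only be set beside which marker genes held a peak. Over all 34614 genes 19.8% held a young and 16.1% an aged peak. Of 8 stem cell markers 4 did in each age, and none of the 5 erythroid and 4 T cell markers did. Of the B cell markers 1 of 4 did in each age (Ebf1). Of the 4 megakaryocyte and 5 myeloid markers none did in young, and 1 each did in aged (Vwf and Mpo).

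An R-loop forms when an RNA pairs with the DNA strand it was copied from and the other DNA strand is left single. R-loops are best known at gene starts rich in CpG and at gene ends, and persistent ones are linked to stalled replication and DNA breaks. Ttc21b encodes a subunit of the intraflagellar transport A complex, which carries cargo back from the tip of the cilium. Ppp1r9a encodes neurabin, an actin-binding scaffold that holds protein phosphatase 1 in place. Lpp encodes a LIM-domain protein of the zyxin family at cell adhesions, and Ror2 a receptor tyrosine kinase that responds to Wnt5a.

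Each gene held 1 strong site, far from its annotated start, and otherwise only weak peaks. The strength of a peak is given in 3 ways. Summit reads are the reads that cover the summit, recovered from the authors' values. The local background is the read level that the authors' peak caller expected there. The fold is the authors' enrichment, (summit reads + 1) over (local background + 1). The genome-wide background, the lowest level the caller commonly used, was 0.823 and 0.825 reads in the young forward and reverse lists and 0.689 and 0.69 in the aged lists.

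The Ttc21b site lay on chromosome 2, between 66189206 and 66189493, 67.3 kb along a gene of 72.9 kb (66183787 to 66256674, minus strand) and 5.55 kb before its 3′ bound. The Ppp1r9a site lay on chromosome 6, between 4923774 and 4924204, 21.1 kb into a gene of 263 kb (4902872 to 5165661, plus strand). The Lpp site was on chromosome 16, between 24583361 and 24583932, 190 kb into a gene of 599 kb (24393350 to 24992578, plus strand). The Ror2 site, found in aged cells alone, was on chromosome 13, from 53269604 to 53269998, 16.2 kb into a gene of 177 kb (53109317 to 53286124, minus strand). All 4 sites were thus in gene interiors. Whether they are exonic or intronic was not analysed here, because the gene table used holds no exons. No other gene of the table and no annotated start lay within 1 kb of any of the 4 sites. The closest annotated start of the same gene was 67.3 kb away at Ttc21b, 20.7 kb at Ppp1r9a, 138 kb at Lpp and 16.2 kb at Ror2.

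**Figure D1:**
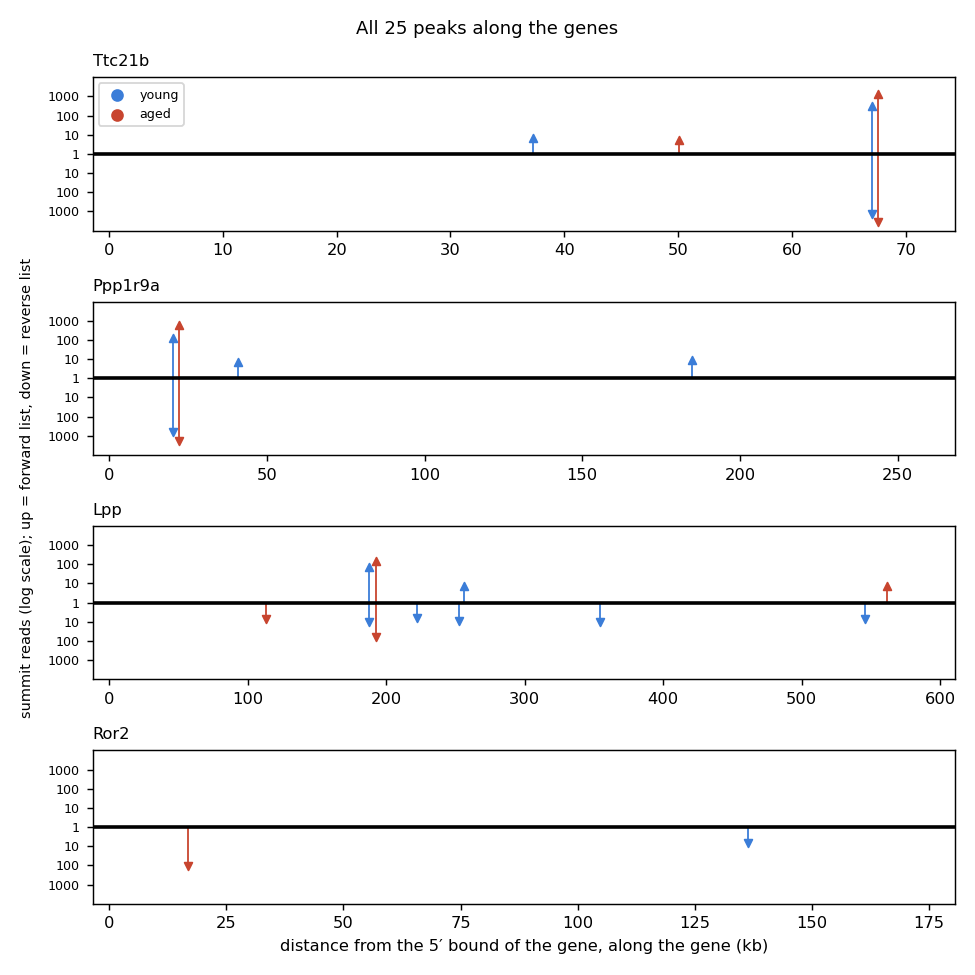
Position of all 25 peaks along the 4 genes, in kb from the 5′ bound, with summit reads on a log scale, forward-list peaks upwards and reverse-list peaks downwards (young blue, aged red, drawn slightly apart). Each gene has 1 strong site, and the remaining peaks hold 10 reads or fewer.

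The starts of the 4 genes carried no peak. RefSeq gives 6 start windows for them (250 bases before to 50 after the start), and no peak of any list overlapped one of the 6. Over all 32851 windows, 0.487% were overlapped by a young and 0.377% by an aged peak, so an empty start is the usual case. The sequences of Lpp and Ror2 before the start are shown because they lie wholly outside the gene bounds and show the CpG-rich kind of start at which R-loops are best known. CG dinucleotides are in capitals, the sequence is from RefSeq (GRCm38.p6), and each is written along the strand of its gene. The Lpp stretch, chr16:24393100-24393349 on the plus strand, has 67.6% G and C and 18 CG. The Ror2 stretch, chr13:53286125-53286374 on the minus strand, has 73.2% and 24. Of all windows 21.7% and 12% have at least as many CG, counted over the same 250 bases, where the median was 6. A second annotated Lpp start lies inside the gene bounds and is not of this kind. Its stretch, 24721605 to 24721854, has 45.2% G and C and 2 CG. The Ttc21b and Ppp1r9a stretches lie wholly or partly inside the gene bounds and are not printed. The first of Ppp1r9a, with 81.2% and 35 CG, is the richest in CG of the 4 genes, and its second has 65.2% and 8. That of Ttc21b, with 66.8% and 20 CG, also has more CG than the first Lpp stretch. The sequences of the strong sites themselves were not analysed here.
Lpp: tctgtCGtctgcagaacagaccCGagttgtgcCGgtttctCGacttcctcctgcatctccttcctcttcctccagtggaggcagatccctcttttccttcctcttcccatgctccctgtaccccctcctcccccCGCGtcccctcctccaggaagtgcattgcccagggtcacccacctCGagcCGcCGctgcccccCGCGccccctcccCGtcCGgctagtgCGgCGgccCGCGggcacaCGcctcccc
Ror2: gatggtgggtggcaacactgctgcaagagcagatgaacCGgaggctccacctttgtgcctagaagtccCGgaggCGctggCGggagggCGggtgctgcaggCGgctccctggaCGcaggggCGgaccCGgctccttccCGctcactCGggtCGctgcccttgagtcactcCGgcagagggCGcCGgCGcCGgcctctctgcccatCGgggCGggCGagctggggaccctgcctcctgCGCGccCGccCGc

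Ttc21b had the most reads of the 4 genes in both ages. Its site held 299 summit reads in the young forward list and 1405 in the young reverse list, against 1248 in the aged forward and 3677 in the aged reverse list. Both strands were thus higher in aged, and in both ages the reverse list was the higher. The aged over young ratio of reads was 4.17 on the forward strand (95% Clopper-Pearson interval 3.68 to 4.75) and 2.62 on the reverse strand (2.46 to 2.78). The local background moved differently on the 2 strands. On the forward strand it was 7.11 in young and 8 in aged, and the fold rose with the reads, from 37.0 to 139. On the reverse strand it was 88.5 in young and 38.5 in aged, 107 and 55.8 times the genome level. The reverse fold therefore went from 15.7 to 93.1, a ratio of 5.93, although the reads differed 2.62 times. The forward peak ranked first by fold in the aged forward list and 53rd by summit reads. The aged reverse peak took rank 3 by fold, 23 by reads and 2 by −log10 q.

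At Ppp1r9a the age with more reads depended on whether peaks of the same strand were compared. The site held 129 forward and 649 reverse summit reads in young and 579 forward and 1894 reverse in aged. Aged was higher on each strand, by 4.49 times on the forward (3.70 to 5.48) and 2.92 times on the reverse strand (2.67 to 3.20). The young peak of highest fold was on the reverse strand (20.3, background 31) and the aged one on the forward strand (82.9, background 6). Setting those 2 peaks side by side gives 649 young against 579 aged reads, a ratio of 0.892, which compares different strands. Like for like, the forward fold was 12.4 in young and 82.9 in aged, and the reverse fold 20.3 and 65.3. Here the reverse background was nearly level, at 31 and 28 reads, and relative to the genome level it was 37.6 times in young and 40.6 times in aged. The forward background was 9.50 in young and 6 in aged.

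At Lpp the forward list was the higher one. The site held 70 forward and 10 reverse summit reads in young, and 148 forward and 65 reverse in aged. The aged over young ratio was 2.11 on the forward strand (1.58 to 2.85) and 6.5 on the reverse strand (3.32 to 14.2), where the young peak was among the weak ones. The folds were 23.7 and 59.6 on the forward and 6.03 and 36.3 on the reverse strand. The background was low, at 2 and 1.5 reads on the forward strand and 0.825 and 0.816 on the reverse strand. Relative to the genome level the forward background was 2.43 times in young and 2.18 times in aged, and the reverse background 1 and 1.18 times. These are lower multiples than at the Ttc21b and Ppp1r9a sites.

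The Ror2 site was called in 1 list only. In the aged reverse list it held 107 summit reads over a background of 1, a fold of 54.0, and ranked 12th by fold and 128th by reads. No young list and not the aged forward list had a peak there. A site without a peak has no recorded reads, so no ratio is given. The young reverse list did hold peaks of as few as 6 reads over the genome background. The young background at the Ror2 site is not recorded, so how many reads young cells had there is not known. The only young Ror2 peak, 7 reads and a fold of 4.38, lay on chromosome 13 from 53148654 to 53148857, in the 3′ part of the gene.

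**Figure D2:**
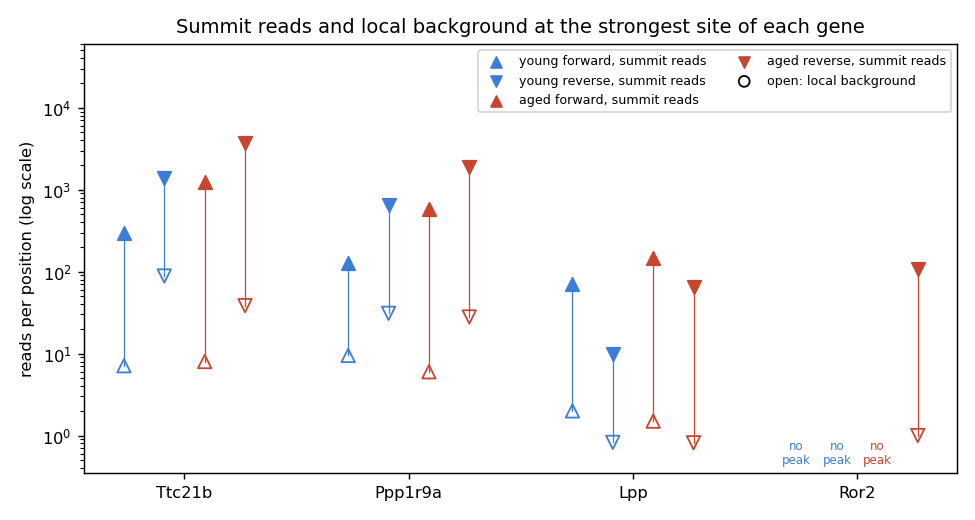
Summit reads (filled) and local background (open) at the strongest site of each gene, in reads per position on a log scale, for the young (blue) and aged (red) forward and reverse lists (triangles up and down). Aged summit reads are above young ones on each strand of Ttc21b, Ppp1r9a and Lpp, and Ror2 has a peak in the aged reverse list alone.

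A ratio of folds joins a change in reads and a change in background, and the 3 shared sites differed in which part was large. At all 6 shared peaks (3 genes, 2 strands) aged had at least 2 times the reads and at least 2 times the fold of young. Ratios ran from 2.11 to 6.5 for reads and from 2.52 to 6.69 for folds. The genes were chosen on this contrast, so the count is no result. Among the 273 same-strand pairs of peaks that overlapped between the ages and held 30 or more reads in both, 38.1% had such a ratio of reads and 40.7% such a ratio of folds. Over all 1751 overlapping pairs 13.1% had a ratio of reads of 2 or more. Differences of this kind were thus common among strong shared pairs. The same aged peak can count repeatedly, with each young peak it was matched to, so the pairs are not all independent. Aged reads were higher with a lower local background at 4 of the 5 strong pairs of the 3 genes, against 43.6% of the 273, and the exception was the Ttc21b forward strand. The genome background was itself lower in aged, and the median background ratio over the 273 pairs was 0.840. Dividing reads by the genome background of their list raised the ratios of the 6 peaks to between 2.52 and 7.78.

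**Figure D3:**
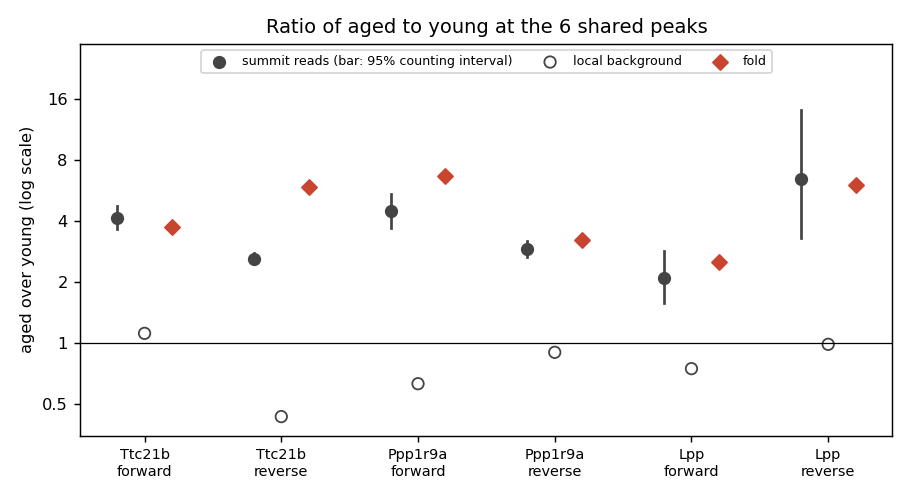
Aged over young ratio (log scale) of summit reads with its 95% counting interval, of local background and of fold at the 6 shared peaks. The fold ratio exceeds the reads ratio most at the Ttc21b reverse peak, where the background ratio is 0.435.

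The same contrast can be read against strong peaks whose summit reads were level between the ages. At Camk1d, a calcium/calmodulin-dependent kinase gene, the strongest site had 364 young and 343 aged reads, a ratio of 0.942 (0.811 to 1.10). Lars2, the mitochondrial leucyl-tRNA synthetase gene, had 0.945 (0.802 to 1.11) on its forward strand, and Gphn, the gephyrin gene, 0.836 (0.585 to 1.19). Level reads did not mean level folds. At Camk1d the fold was 146 in young and 68.8 in aged, over backgrounds of 1.5 and 4 reads, and the Lars2 reverse fold was 8.75 and 21.9 at 34 and 36 reads. For reads, the intervals of all 6 shared peaks of Ttc21b, Ppp1r9a and Lpp lay above the 3 intervals just given. The interval of the Lars2 reverse peak, 0.644 to 1.74, overlapped that of the Lpp forward peak, 1.58 to 2.85. Backgrounds at the 3 level sites ran from 0.69 to 5 reads, so Lpp had a background of the same order while Ttc21b and Ppp1r9a had more. The 2 groups of genes were picked for this difference, which is therefore not tested. Of sites strong in aged alone, Pxylp1 (568 forward and 179 reverse reads), Patl1 (42 and 30) and Abhd6 (45 and 73) were called on both strands, whereas Ror2 was called on 1.

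**Figure D4:**
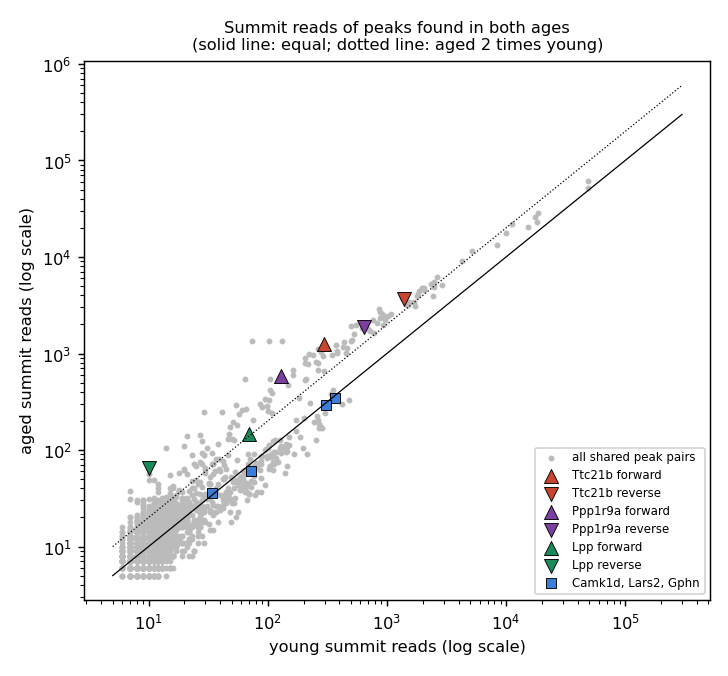
Summit reads of every same-strand peak pair shared by the ages, young on the horizontal and aged on the vertical axis (both log scales), with the solid line at equality and the dotted line at 2 times. The 6 peaks of Ttc21b, Ppp1r9a and Lpp lie above the dotted line within a band of other strong pairs, and the strong pairs of Camk1d, Lars2 and Gphn lie near the solid line.

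The strong sites lay within 30 bp of each other in the 2 ages, but mostly not closer than other strong pairs. Summits of the 2 ages were 1 to 30 bp apart at the 6 shared peaks, while the median over the 273 strong pairs was 10 bp and over all 1751 pairs 35 bp. Of the 5 strong pairs at these genes, only the Ttc21b forward one, 1 bp apart, lay below that median of 10 bp. At Ttc21b the peaks of all 4 lists began at the same base, 66189206, and both aged peaks ended at 66189479. The Lpp forward peaks of the 2 ages also began at 1 base, so 3 of the 6 shared peaks had a common start, and 3 of the 5 strong ones. Such a common start was seen in 32.4% of all shared pairs and in 25.6% of the strong ones. Widths changed little at Ttc21b (286 and 288 bp in young, 274 in both aged lists). At Ppp1r9a the peaks were wider in aged, 426 and 423 bp against 377 and 375. The Lpp forward peak was 325 bp wide in young and 572 in aged, where it reached 247 bp further at its far end. On the same strand the aged peaks were thus narrower than the young ones at Ttc21b and wider at Ppp1r9a and Lpp.

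**Figure D5:**
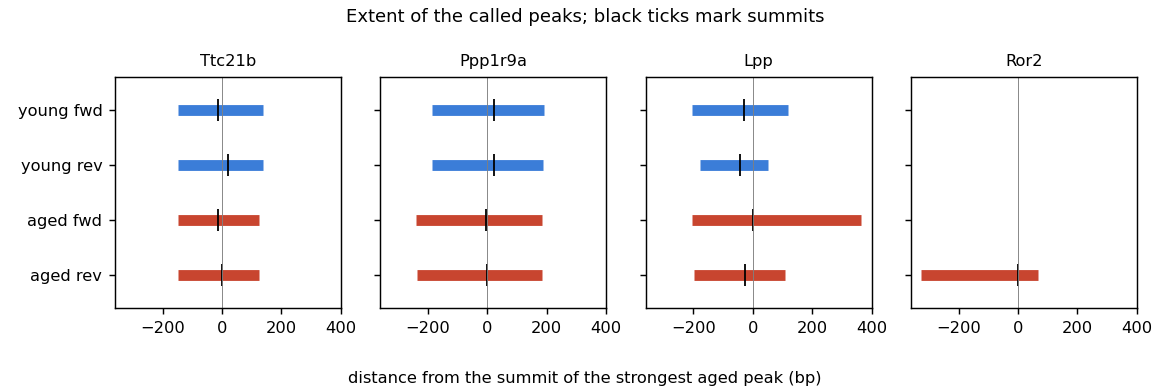
Called extent of the peak in each list at the 4 sites, in bp from the summit of the strongest aged peak, with summits as black ticks (young blue, aged red). The 4 Ttc21b peaks share their left edge, and the aged Lpp forward peak extends furthest to the right.

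Of the 4 genes, 3 had their strong site on both strands. Peaks of the 2 strands overlapped at Ttc21b, Ppp1r9a and Lpp in both ages, which covers 6 young peaks out of 15 and 6 aged peaks out of 10. Such overlap was found for 1.62% of the young and 9.24% of the aged lists. With at least 30 reads the share reached 51.6% for young and 73.1% for aged peaks, against 5 of 5 and 6 of 7 at the 4 genes. Overlap with the other age was likewise more frequent among peaks of many reads in the lists. At the 4 genes 6 young peaks out of 15 had it (7.29% of the young lists) and 6 aged peaks out of 10 (10.7%), and with 30 or more reads for 5 of 5 (87.2%) and 6 of 7 (61.9%), Ror2 being the exception. Strong shared pairs with a peak on the other strand in both ages had a reads ratio of 2 or more in 51.9% of 156 cases, and those without in 19.7% of 117.

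The 2 strands came closer in aged cells at the 3 sites with a peak in all 4 lists. At Ttc21b the reverse over forward ratio of reads was 4.70 in young (4.14 to 5.34) and 2.95 in aged (2.76 to 3.14). At Ppp1r9a it was 5.03 (4.16 to 6.13) and 3.27 (2.98 to 3.6). At Lpp the forward over reverse ratio was 7 (3.59 to 15.2) and 2.28 (1.69 to 3.10). These ratios are built from the summit reads by which the genes were chosen, so they are a description. Of 152 such sites in the genome 52.0% had strands nearer to equal in aged, and of the 58 with at least 100 reads in the stronger young peak 58.6%, so such a shift was seen at little more than every other site. The median ratio over the 152 sites was 1.63 in young and 1.60 in aged, below that of the 3 genes. Uneven strands were also found elsewhere, as at Lars2, with a forward over reverse ratio of 9.03 in young and 8.06 in aged. The higher strand was the reverse list at Ttc21b and Ror2, on the minus strand, and at Ppp1r9a, on the plus strand, and the forward list at Lpp, on the plus strand. The labels do not say which DNA strand a list stands for, so sense and antisense cannot be told apart.

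A raised background was the usual case among strong peaks, at the 4 genes as over the whole lists. Deep stacks of reads were found at the Ttc21b and Ppp1r9a sites and not at Lpp or Ror2. A local background of more than 2 times the genome-wide one lay under 5 young peaks out of 15 (7.55% of the young lists) and 5 aged peaks out of 10 (14.8%). Among peaks of 30 reads or more it was so at 5 of 5 in young (89.2%) and 5 of 7 in aged (84.8%). The aged Lpp reverse and Ror2 peaks were the 2 without it, at 1.18 and 1.45 times the genome level. The summit held more reads than the peak had bases at 3 of the 15 young peaks (0.287% of the young lists) and at 4 of the 10 aged ones (1.11%). With 30 reads or more the counts were 3 of 5 in young (20.1% of such peaks in the lists) and 4 of 7 in aged (32.7%). These were the 4 peaks at the strong Ttc21b site and, at the strong Ppp1r9a site, the peaks other than the young forward one. Such depth depends on how duplicate and multiply mapping reads were treated, which is not given in the sources used here, and their part in these peaks was not tested.

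The remaining peaks in the 4 genes were weak. Of the 15 young peaks 10 had 10 reads or fewer, with folds of 3.83 to 6.03, and so did 3 of the 10 aged ones, with folds of 3.55 to 4.74. The 9 young and 3 aged weak peaks away from the strong sites each lay where the other age had no peak on that strand, which is the usual case, since 7.29% of all young and 10.7% of all aged peaks overlapped one of the other age. Lpp, the longest of the 4 genes, held the most peaks, 7 in young (2 forward, 5 reverse) and 4 in aged (2 and 2). Ppp1r9a held 4 in young and 2 in aged, Ttc21b 3 in each, and Ror2 1 in each. Per 100 kb the 4 genes together held 1.34 young and 0.893 aged peaks, against 0.912 and 0.645 over all protein-coding genes. These densities include the peaks of the strong sites by which the genes were chosen, counted on each strand. Away from those sites lay only 9 young and 3 aged peaks, so the higher densities are no result about the genes. At a −log10 q of at least 5 the order of the ages turned, with 5 young and 7 aged peaks in the 4 genes. The genes were chosen for strong aged peaks, so this turn is no result about them. Over the whole lists, too, young had more peaks in all (24009 against 16198 aged). Aged had more of those with 30 or more reads (551 against 343 young). Extending the bounds by 1 kb added none, as the peak nearest to a bound, the Ttc21b site, lay 6.55 kb inside the extended bound. The nearest peak outside was 29.4 kb beyond the Ttc21b bound (fold 6.5, 12 reads, young forward), and the nearest beyond Ppp1r9a, Lpp and Ror2 lay 47.0, 98.8 and 93.7 kb away with 6 to 8 reads.

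Neighbouring genes had at most weak peaks. Scn1a, a sodium channel gene 14.1 kb from Ttc21b, held 2 young and 1 aged peak with top folds of 6.5 and 3.86. Galnt3, a glycosyltransferase gene on the other side, held 2 young peaks and no aged one. Pon1, the paraoxonase gene 2.43 kb beyond Ppp1r9a, had none, and neither had the closest lncRNA genes beside Ppp1r9a and Ror2. At Lpp the lncRNA gene Gm38456 held 1 young peak of fold 3.99, and A230028O05Rik none.

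Genes that work with the 4 did not share their strong sites. Each list was written with earlier results from these data known, and includes the member itself. Of all 34614 protein-coding and lncRNA genes 19.8% held a young and 16.1% an aged peak, with median top folds of 4.94 and 4.74. Of 8 intraflagellar transport A genes 5 held a young and 2 an aged peak. Besides Ttc21b, the highest was Ift140, another subunit of the complex, with a fold of 8.23 and 14 reads in young and no aged peak, and Ift122 had 5 and 5.51. Tulp3, which couples the complex to membrane cargo, had 5.48 in young. Of 8 genes of protein phosphatase 1 and its partners 3 held a peak in each age. They were Ppp1r9a, its close relative Ppp1r9b (4.39 young, 6.51 aged) and the myosin phosphatase subunit gene Ppp1r12a (6.03 and 5.92). Of 10 zyxin family and partner genes 4 held a young and 3 an aged peak. Limd1, a LIM-domain relative of Lpp, had 8.22 with 14 reads in young and 10.5 with 19 reads in aged, and zyxin itself, Zyx, 6.04 and 4.14. Of 15 genes of the noncanonical Wnt pathway 5 held a young and 3 an aged peak. The ligand gene Wnt5b had 7.70 in aged only, the planar polarity gene Vangl2 6.58 in young only, and Ror1, the relative of Ror2, 5.81 and 4.73. Each partner gene is given by its peak of highest fold in an age, and none of those peaks exceeded 19 reads. Reads of other peaks in the partner genes were not compared.

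The genes most like each member were sought by their strongest summit reads in the 4 lists, as the Euclidean distance of log2(reads + 1) over these 4 values among 9701 other genes with a peak. For Ttc21b they were Ppp1r9a (distance 2.20), Dop1b (2.92) and D5Ertd579e (3.16). Dop1b, at 162 forward and 384 reverse reads in young and 604 and 1073 in aged, was also nearest to Ppp1r9a (1.16). D5Ertd579e followed at 1.37 with 183, 452, 350 and 1011 reads, together with the lncRNA gene Gm32584, which lies within it and is counted for the same peaks. For Lpp the nearest was Wdr76 (0.843), with 51 and 12 young and 193 and 44 aged reads, then Gm38505 (1.83) and Gm36264 (1.85). Of these, Gm36264 alone had fewer forward reads in aged, 116 against 143 in young. For Ror2 they were Neat1 (2.03), the lncRNA that scaffolds paraspeckles, Mier3 (2.06) and Hnrnpd (2.08), with 25 to 29 aged reverse reads against 107. The young reverse value used for Ror2 came from its 7-read peak in the 3′ part of the gene, away from the strong site. The pattern of Ttc21b and Ppp1r9a, with strong peaks in all 4 lists and more reads in aged, was also seen in Dop1b and D5Ertd579e, at lower read levels than Ttc21b. By this distance the nearest gene was closest for Lpp and farthest for Ttc21b. The distance uses 4 values per gene that were themselves the basis for choosing the members.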

How the data were processed

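The labels name 8 samples, 2 IP and 2 input for each age, and 4 peak lists. The submitters' processing notes name the build GRCm38, the trimmer Trim Galore, the aligner Bowtie2 (2.4.4), the peak caller MACS3 (3.0.0b1) and the package deepTools (3.5.1). What settings these ran with, and which IP and input samples entered each list, is not given in the sources used here. Each deposited line holds a peak, its summit offset, the authors' fold (a ratio of reads to local background), and the −log10 p and −log10 q that the authors' caller gave. A deposited integer score was not used. Library depth is not in the files, and the genome background stands in for it. All 4 lists are named as normalized, without a statement of what was normalized. If reads were scaled before peak calling, the genome background need not follow the sequenced depth. Whole summit reads were solved from the authors' deposited fold ratio and −log10 p as MACS computes them, with p the Poisson tail above the reads. All 40207 peaks matched within 0.1%. At some, such as the aged Ttc21b reverse peak, the next-best whole number also did, and the best match was taken. On simulated peaks 100% of 2000 came back exactly. These were built with the same formulas, so that return does not show which formulas the authors' caller used. Peaks were called shared on an overlap of at least 1 bp on the same strand. Each young peak was paired with its overlapping aged peak of most reads, so the same aged peak can enter several pairs. Intervals are exact 95% binomial (Clopper-Pearson) and take the summit reads as unscaled counts. Whether reads were scaled before peak calling was not tested, and with scaled reads these intervals would not be exact. Gene bounds, start windows and gene strands came from RefSeq tables (GRCm38.p6), in which all 4 members were matched. The genes, lists and measures were chosen with earlier results of these data known. Genes named are the 4 members, 6 comparison genes, neighbours, up to 4 list members with a fold of at least 5, and the 3 nearest genes by distance. The markers Vwf, Mpo and Ebf1 were named after their values were seen. Scripts ran under Python 3.11.15 with scipy 1.17.1 for intervals, pandas 2.3.3 and numpy 2.4.6 for tables, and matplotlib 3.10.9 for plots. Alternatives covered gene bounds, cut-offs, overlap, strand and the measure of strength.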

Additional observations from a re-analysis of the deposited data

How the results depend on the processing

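No paired analysis was possible because each deposited list combines the replicates of an age, and leaving out a replicate could not be run either. Of 59 alternative values 42 were classed as the same, 15 as moved and 2 turned the direction of a ratio, both at Ppp1r9a. The same meant within the counting interval for reads ratios and within 1.5 times for counts. Fold ratios have no counting interval of their own, so their classes are only a rough guide. Taking the peaks of highest fold, which lie on different strands, gave a reads ratio of 0.892, and replacing their local by the genome background gave a fold ratio of 0.964. From a reads ratio of 2.62 at Ttc21b (reverse strand, the stronger one), the forward strand, which also holds the peak of highest fold, gave 4.17, the sum of both strands 2.89 and scaling by the genome background 3.13. From 2.92 at Ppp1r9a the forward strand gave 4.49 and scaling 3.49, and from 2.11 at Lpp the reverse strand gave 6.5. Fold ratios between the peaks of highest fold were 3.75 at Ttc21b, 4.08 at Ppp1r9a and 2.52 at Lpp. They became 5.93, 3.22 and 6.03 on the reverse strand, 6.69 on the forward strand of Ppp1r9a, and 4.49 over the genome background at Ttc21b. Young peaks numbered 8 at a fold of at least 5 and 5 at a −log10 q of at least 5, against 15 in all, and 8 instead of 5 lay over a raised background when raised meant more than 1% above the genome level. Aged peaks numbered 7 instead of 10 at both cut-offs, so at a −log10 q of at least 5 the order of the ages turned. The genes were chosen for strong aged peaks, and strong peaks were more numerous in aged over the whole lists as well. Library depth is not in the files, so its part in these counts was not tested.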
